A study of Bos taurus with 81 samples.

Results

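The regions described here are stretches of the bovine genome that appeared in peak lists of histone H3 trimethylated at lysine 9 (H3K9me3) from the morula on and in none of the lists from the oocyte to the 8-cell embryo. The 29 autosomes were divided into bins of 5 kb, and a bin was called marked in a list when peaks covered at least 50% of its bases. Members are the bins marked in both H3K9me3 lists of the morula, of the inner cell mass and of the trophectoderm, which are the 6 late lists, and in none of the 8 lists of the oocyte, the 2-cell, the 4-cell and the 8-cell embryo, which are the early lists. Of 497623 autosomal bins, 2079 (0.418%) were members, or 10.4 Mb in all. Because the bins were chosen by their H3K9me3 in these 14 lists, values from those lists are a description of the choice and carry no test.

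The series profiled in vitro produced bovine embryos with CUT&Tag, in which an antibody guides a transposase to chromatin carrying a given mark, for H3K4me3, H3K27ac, H3K27me3 and H3K9me3, and with ATAC-seq, in which the transposase cuts open chromatin. Each mark had 2 libraries in each of 9 groups, and ATAC-seq had 3 libraries in each of the whole blastocyst and its separated lineages. The groups were germinal vesicle oocytes (GV), 2-cell embryos at 32 h after insemination (2C), 4-cell embryos at 44 h (4C), 8-cell embryos at 56 h (8C), morulae at 122 h (MO) and whole blastocysts at 172 h (BL). The inner cell mass (ICM) was isolated by immunosurgery and the trophectoderm (TE) was cut from blastocysts with a micro scalpel. One further group (8A) was 8-cell embryos cultured with 50 μg/ml α-amanitin, an inhibitor of RNA polymerase II, and collected at 56 h like the untreated 8C embryos. All other groups were untreated. A library was made from about 500 oocytes or from 1000 to 1500 blastomeres. The labels do not say whether the 2 libraries of a group came from separate collections, so a spread between them may be technical.

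H3K9me3 is the mark of constitutive heterochromatin. It is bound by HP1 proteins, silences repeats and transposons, and in mammalian embryos is reorganised after fertilisation. H3K27me3 is deposited by Polycomb repressive complex 2 over silent developmental genes and, in oocytes, over wide domains. H3K4me3 and H3K27ac are marks of promoters and active enhancers, and mammalian oocytes also carry broad H3K4me3 domains away from promoters.

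Across the autosomes the 18 H3K9me3 lists covered from 96.6 Mb (ICM replicate 1) to 188 Mb (GV replicate 1). The values are presence or absence of a called peak rather than a level of the mark, and the sequencing depth behind a list is unknown. No test of a difference between conditions was run, and an exact two-sided test of 2 libraries against 2 cannot give a p under 0.333. Shares of members are given beside the share of all autosomal bins, which is the background.

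Members were a minority of the bins in which H3K9me3 was called throughout the late stages. All 6 late lists marked 6336 bins, of which 2079 (32.8%) were in no early list and 4257 were in at least 1. At the other extreme, 828 bins were marked in all 14 lists. Most of the H3K9me3 called in morulae and absent from the early lists was not called in both lineages. Both MO lists and no early list marked 10984 bins, and of these 4243 (38.6%) were marked in both ICM lists, 2660 (24.2%) in both TE lists and 2079 (18.9%) in both lists of both lineages. A further 4645 (42.3%) were in no ICM and no TE list. Bins marked in both ICM lists and no TE list numbered 1805, and those in both TE lists and no ICM list 221. ICM replicate 1 had the shortest list, so these lineage counts are not matched for covered length.

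Peak edges in these lists fall on a grid of 200 bases, which sets how close a bin can be to the threshold. In 149 members the least covered late list covered 2600 of the 5000 bases, or 52%, and 153 bins that met every other criterion were kept out by a late list covering 2400 bases, or 48%. With a threshold of 75% the count was 1249 bins, and with 10 kb bins it was 953, or 9.53 Mb. An early list covered 2400 bases in 34 members, and 33 bins were kept out by an early list at 2600 bases. Far from the threshold, 519 members (25.0%) were covered over their whole length in all 6 late lists, and 1791 members (86.1%) had no covered base in any early list.

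The 4 H3K9me3 lists that the choice did not use were those of whole blastocysts and of α-amanitin-treated 8-cell embryos. Whole blastocysts contain both lineages, and their lists marked 92.2% (replicate 1) and 97.5% (replicate 2) of members. Both BL lists marked 1892 members (91.0%), against 3.54% of all autosomal bins. Both BL libraries were thus far above that background, and near the 95.1% found for bins marked late and also in an early list. The BL embryos are a separate set of libraries from ICM and TE but the same stage.

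In α-amanitin-treated 8-cell embryos, H3K9me3 was called on 12.7% (replicate 1) and 12.1% (replicate 2) of members. Neither 8A list marked 1707 members (82.1%), whereas 91.2% of all bins were in neither. Both 8A lists marked 144 members (6.93%), close to the 6.13% of all bins. Bins marked late and in an early list were marked in both 8A lists in 82.4% of cases. The untreated 8C lists mark no member by the choice itself, so 8A and 8C cannot be compared on these bins.

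**Figure D1:**
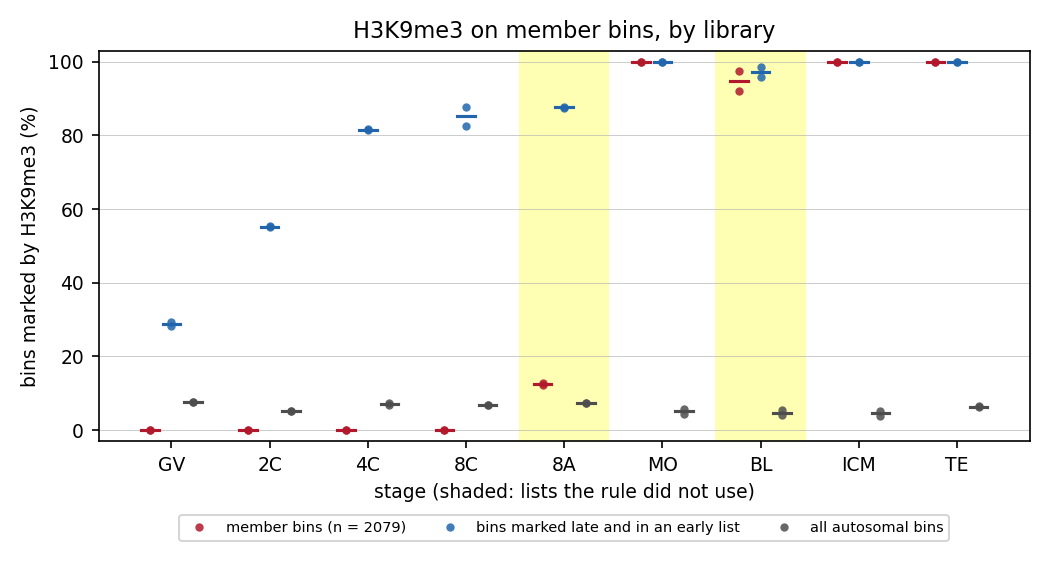
The vertical axis is the percent of bins marked by H3K9me3 and the horizontal axis the stage, with 1 point for each library and a bar at the mean of 2. Member bins are at 0 in GV to 8C and at 100 in MO, ICM and TE because the choice fixed them there, while the shaded 8A (12.7% and 12.1%) and BL (92.2% and 97.5%) were not used.

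To read 8C and 8A side by side, the bins were chosen again without the 8C lists, an alternative added after the data were seen. Of the 2340 bins so chosen, the 8C lists marked 8.59% and 6.03% and the 8A lists marked 17.4% and 16.8%. Of all autosomal bins the 8C lists marked 6.95% and 6.88% and the 8A lists 7.48% and 7.41%. Neither 8C list marked 88.8% of the chosen bins, against 91.8% of all bins, and neither 8A list 76.4%, against 91.2%. Both 8A libraries were above both 8C libraries and above the background, with no overlap, and the difference was not tested.

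Each other group was also left out of the choice in turn and then read, likewise added after the data were seen. Without the GV lists, the GV libraries marked 1.69% and 1.36% of 2126 bins, against 7.75% and 7.65% of all bins. Without the 2C lists, the 2C libraries marked 0.239% and 0.383% of 2089 bins, against 5.24% and 5.22%. Without the 4C lists, the 4C libraries marked 4.60% and 5.30% of 2263 bins, against 6.75% and 7.27%. The shares were under the background in GV and 2C, a little under it in 4C, and on both sides of it in 8C. The chosen bins had to be in no list of the other early groups, which the background bins did not. Early lists share bins, so shares under the background are partly fixed by the choice and do not test it.

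At the late stages the left-out lists are read for presence, which few of all bins show. At the early stages they are read for absence, which most bins show, so early and late readings cannot be compared. Without the ICM lists, the ICM libraries marked 82.7% and 87.2% of 2660 bins, against 3.94% and 5.22% of all bins. Without the TE lists, the TE libraries marked 53.8% and 52.7% of 4243 bins, against 6.36% and 6.42%. Without the MO lists, 5038 bins were found and the MO libraries marked 44.5% and 56.2% of them, against 4.51% and 5.81%. Neither MO list marked 40.6% of these, so that many bins shared by ICM and TE and absent early were not called in morulae. The members are the subset already called at the morula.

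Each replicate was also used to choose bins that were then read in the other. Bins chosen on the first replicate of each group numbered 2868, and the second replicates met the whole rule in 72.5% of them, against 0.811% of all bins. Bins chosen on the second replicates numbered 4034, and the first replicates met the whole rule in 51.5%, against 0.576% of all bins. The lower value came with the MO list of replicate 1, which marked 70.8% of the second selection, while the ICM list of replicate 1 marked 84.2% and the TE list 92.2%.

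H3K27me3, which had no part in the choice, lay on most members in the oocyte and again from the morula on. In GV oocytes its lists marked 68.5% and 67.0% of members, and both marked 1324 (63.7%), against 7.58% of all autosomal bins. In morulae the lists marked 88.2% and 85.8% of members and both marked 84.1%, against 5.41% of all bins. The BL lists marked 83.1% and 82.3% of members, and both 81.0% against 10.0%. The ICM lists marked 82.2% and 81.8%, and both 80.3% against 8.89%. The TE lists marked 78.5% and 79.9%, and both 76.9% against 9.95%. Every late library marked at least 78.5% of members.

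Between these stages H3K27me3 was called on few members. The 2C lists marked 5.7% and 7.5% of members, and both marked 3.61%, against 3.52% of all bins. The 4C lists marked 5.96% and 5.05%, and both 1.97% against 4.76%. The 8C lists marked 6.3% and 6.06%, and both 2.74% against 4.52%. These shares were near or under those of all bins. With α-amanitin, the 8A lists marked 13.3% and 14.2% of members, and both marked 7.94% against 4.94% of all bins.

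The low cleavage values are not independent of the choice, because H3K27me3 and H3K9me3 were called on largely the same bins at those stages. Of all bins marked in both H3K27me3 lists, 61.4% in 2C, 84.2% in 4C and 87.7% in 8C were also marked in both H3K9me3 lists of the group, whereas in GV the share was 5.75%. Excluding early H3K9me3 therefore also removes most cleavage H3K27me3 bins. The 8C lists take part in this exclusion and the 8A lists do not. On the 2340 bins chosen without 8C, a reading added after the data were seen, the 8C lists of H3K27me3 marked 10.4% and 10.3% and the 8A lists 18.2% and 19.0%. Of all bins they marked 5.67% and 5.78% in 8C and 6.02% and 6.34% in 8A. The difference between 8A and 8C was not tested. At the late stages, the share of H3K9me3 bins that carried H3K27me3 in both lists was 42.8% in MO, 60.7% in ICM and 79.9% in TE over all bins. Among members it was 84.1%, 80.3% and 76.9%, so that members lay above the level of all H3K9me3 bins in MO and ICM and below it in TE. Members had to be marked in all 6 late lists, which all H3K9me3 bins of a group did not. Late-marked bins with an early list, which also met that criterion, had 81.4% in MO, 74.5% in ICM and 76.4% in TE. Members were thus nearer to these bins than to all H3K9me3 bins. How far one antibody's lists hold signal of the other mark was not tested.

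Read over groups, 1343 members (64.6%) were marked by H3K27me3 in both lists of at least 1 early group, against 12.3% of all bins, and 1827 (87.9%) in both lists of at least 1 of MO, ICM and TE, against 12.4%. Followed bin by bin, 903 members (43.4%) were marked in both GV lists, in no list of 2C, 4C or 8C, and in all 6 late lists. Among all bins 1.53% had this history, among late-marked bins with an early list 2.09%, and among other bins of the last 10 Mb 5.92%. Its cleavage part is not independent of the choice, as given above. All 6 late H3K27me3 lists marked 72.3% of members and 68.0% of late-marked bins with an early list. A further 221 members (10.6%) had H3K27me3 in no early list and in all 6 late lists, against 0.782% of all bins. No late H3K27me3 list marked 173 members (8.32%).

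**Figure D2:**
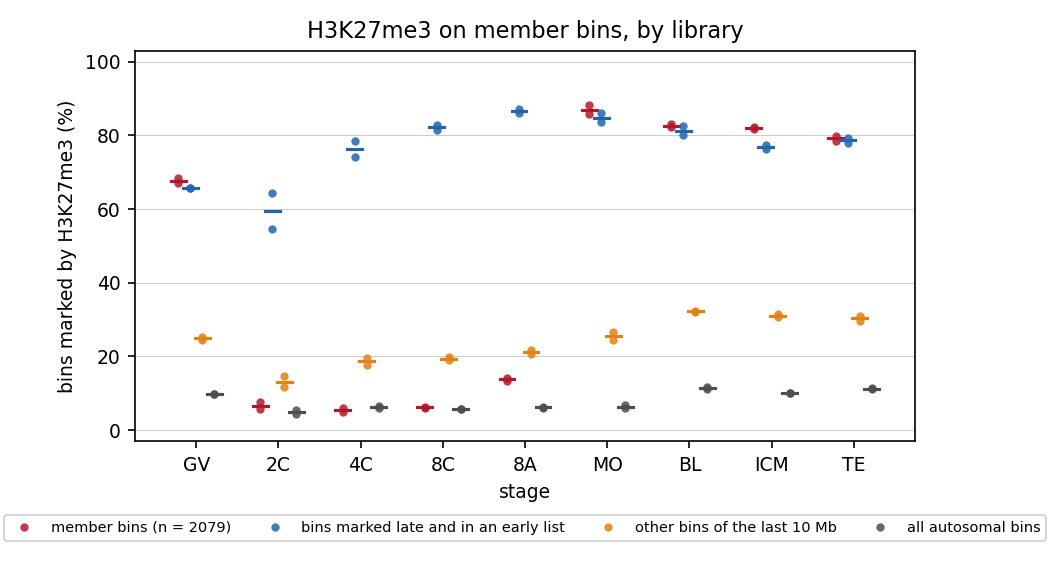
The vertical axis is the percent of bins marked by H3K27me3 and the horizontal axis the stage, with 1 point for each library and a bar at the mean of 2. Members are high in GV (68.5% and 67.0%), low in 2C, 4C and 8C, and high again from MO (88.2% and 85.8%) on. Bins marked late and in an early list stay high in cleavage. That difference is not independent of the choice, which used early H3K9me3.

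Other bins of the last 10 Mb of each chromosome, where most members lie, were used as a second background after the data were seen. Both lists marked 21.2% of these in GV, 16.5% in 8C, 22.6% in MO and 27.6% in TE. They were above all bins at every stage but well below members in GV and from MO on. Bins marked late and in an early list had H3K27me3 in both lists in 67.7% of cases in 4C and 75.7% in 8C. This contrast with members is not independent of the choice. Early H3K9me3, which shares most cleavage bins with H3K27me3, was required in these bins and excluded in members. In GV (61.9%) and MO (81.4%) the share of these bins was close to that of members.

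H3K4me3 peaks are narrow, and for this mark, H3K27ac and ATAC a bin was counted when a peak covered at least 1 base. H3K4me3 was present on most members in the oocyte and during cleavage. In GV the lists had a base in 84.6% and 87.0% of members, and both in 83.4%, against 19.7% of all bins. Both GV lists had a base in 68.5% of late-marked bins with an early list. For other bins of the last 10 Mb the share was 40.6%. The 2C lists had a base in 80.2% and 79.4%, and both in 75.9% against 13.5%. The 4C lists had a base in 77.8% and 79.7%, and both in 74.6% against 13.2%. In 8C the 2 libraries differed, with 60.6% and 73.1%, and both had a base in 59.5% against 10.0% of all bins. The 8A libraries, with 67.1% and 64.1%, lay between them, and both had a base in 60.0% against 8.34%. The level depended on the definition. When 50% of a bin had to be covered, both GV lists marked 29.7% of members against 2.60% of all bins, both 8C lists 16.9% against 1.36% and both 8A lists 12.4% against 0.726%. The single libraries then overlapped, with 17.0% and 35.6% in 8C and 17.1% and 14.4% in 8A.

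From the morula on, H3K4me3 on members was at the level of the genome. The MO lists had a base in 8.3% and 8.4% of members, and both in 7.12%, against 5.61% of all bins. The BL lists had a base in 5.63% and 6.35%, the ICM lists in 3.61% and 3.70%, and the TE lists in 6.78% and 5.05%. Both lists had a base in 5.29% against 6.04% in BL, in 3.03% against 4.48% in ICM, and in 4.67% against 5.26% in TE. Every early library was thus above 60% and every late library under 9%, with no overlap. In all 8 early lists, 1180 members (56.8%) had an H3K4me3 base, against 7.86% of all bins. A base in all early and in no late list was found in 968 members (46.6%), against 3.67% of all bins. For late-marked bins with an early list these shares were 44.3% and 41.2%, and for other bins of the last 10 Mb 22.03% and 14.01%. The early presence and late absence of H3K4me3 was thus nearly as frequent in late-marked bins with an early list.

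H3K27ac, found at active promoters and enhancers, had an intermediate course. It had a base in 38.5% and 38.2% of members in GV, in 56.5% and 60.9% in 2C and in 43.5% and 47.2% in 4C. Both lists had a base in 31.1% against 16.0% of all bins in GV, in 48.3% against 7.31% in 2C, and in 35.0% against 8.74% in 4C. In 8C the lists had a base in 17.8% and 17.4%, and both in 14.2% against 10.1%. The 2C embryos were highest among the untreated groups in both libraries.

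Under α-amanitin the 8-cell embryos had H3K27ac on far more members than the untreated 8-cell embryos. The 8A lists had a base in 58.8% and 55.4% of members, and both in 50.4% against 14% of all bins. The 8A libraries were above both 8C libraries by more than the spread between replicates, and near the 2C libraries. On the 2340 bins chosen without 8C, H3K27ac had a base in 16.9% and 16.3% in 8C and in 57.1% and 53.5% in 8A. Of all bins the same lists had a base in 12.98% and 13.40% in 8C and in 19.41% and 16.25% in 8A. Both 8A libraries were thus above both 8C libraries over all bins too, and the 8C shares of the chosen bins were near the background. Other bins of the last 10 Mb went the same way, with 10.3% in 8C and 26.9% in 8A. With 50% of a bin covered, both 8C lists marked 2.98% of members against 1.40% of all bins, and both 8A lists 11.1% against 1.12%.

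In the late stages H3K27ac was scarcer on members than in the genome. The lists had a base in 6.59% and 6.40% of members in MO, in 3.46% and 3.56% in BL, in 3.42% and 2.79% in ICM, and in 3.22% and 3.46% in TE. Both lists had a base in 5.68% of members against 14.1% of all bins in MO, in 3.13% against 7.54% in BL, in 2.55% against 10.3% in ICM, and in 2.74% against 7.67% in TE. No H3K4me3 or H3K27ac base lay in any of the 12 late lists of MO, ICM and TE in 1709 members (82.2%), against 75% of all bins. The share was 87.8% for late-marked bins with an early list, 83.9% for bins marked in all 14 H3K9me3 lists and 69.7% for other bins of the last 10 Mb.

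Open chromatin on members was near the level of the genome. The BL lists had an ATAC base in 20.0%, 24.6% and 23.3% of members, the ICM lists in 18.7%, 18.0% and 18.0%, and the TE lists in 15.1%, 15.9% and 15.9%. All 3 lists had a base in 17.1% against 16.1% of all bins in BL, in 15.0% against 15.1% in ICM, and in 12.2% against 14.1% in TE. Each BL library was above the ICM libraries, and each ICM library above the TE libraries, which also holds for the share of all bins in every list.

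**Figure D3:**
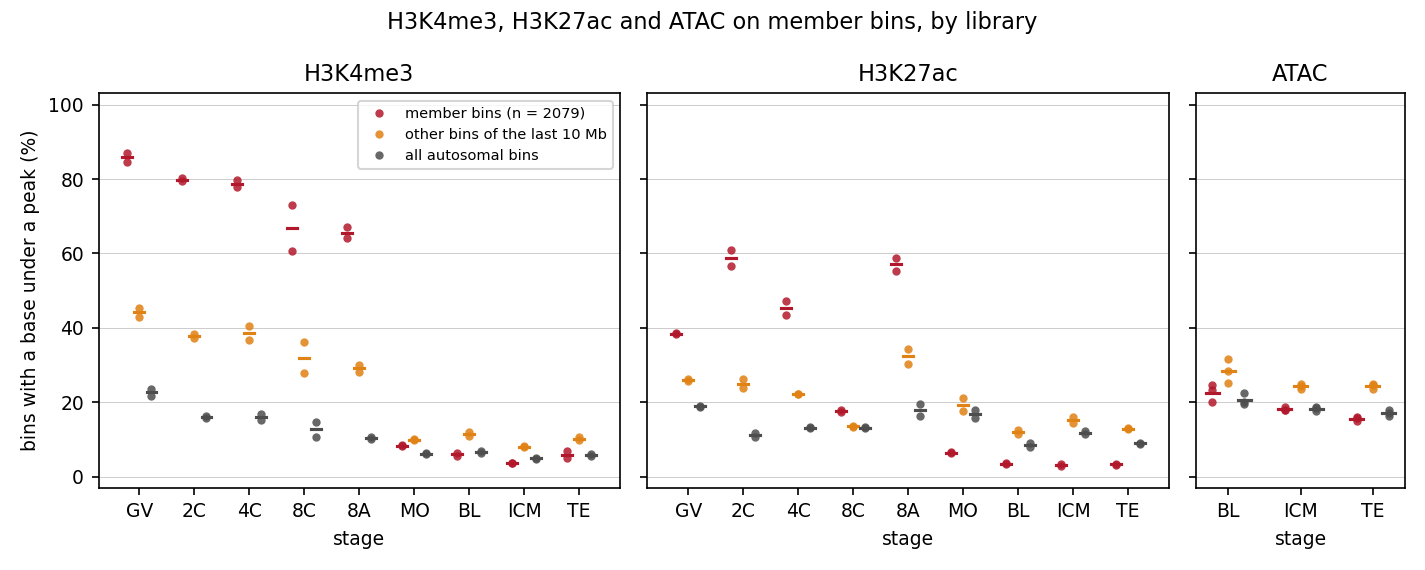
The vertical axis is the percent of bins with at least 1 base under a peak and the horizontal axis the stage, for H3K4me3, H3K27ac and ATAC, with 1 point for each library and a bar at the group mean. Members carry H3K4me3 in every early library (60.6% or more), H3K27ac in 43.5% or more of bins in 2C, 4C and 8A, and neither mark above 9% in a late library.

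The marks coincided in the oocyte. In GV, 1257 members (60.5%) had an H3K4me3 base in both lists and were marked by H3K27me3 in both, against 5.37% of all bins. The members were then divided by GV H3K27me3. Where both GV lists marked the bin (1324 bins), both BL lists of H3K9me3 marked 94.8%, and where none did (585 bins, 28.1% of members) 84.1%. Both MO lists of H3K27me3 marked 95.2% of the first and 59.7% of the second. For TE the values were 89.6% and 50.1%.

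The active marks differed between these 2 sets as well. H3K4me3 had a base in both GV lists in 94.9% of the members with GV H3K27me3 and in 58.1% of those without, and in both 8C lists in 73.0% and 33.0%. H3K27ac went the other way in the oocyte, with 20.8% and 50.9% in GV, and then the same way as H3K4me3 in 2C, with 56.9% and 30.6%. In 8A it was 59.2% and 32.8%. The full sequence of GV H3K27me3, none in cleavage and all late, with H3K4me3 in all early and no late lists, was found in 581 members (27.9%), against 0.726% of all bins. It was found in 1.62% of late-marked bins with an early list and in 3.16% of other bins of the last 10 Mb. The absence of H3K27me3 in cleavage is not independent of the choice, which excluded early H3K9me3. These contrasts are therefore a description.

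Members lay towards one end of the chromosomes. Bovine autosomes are acrocentric, with the centromere by convention near the start of the numbering, so the end of the numbering is the distal, telomeric side. In the last 10 Mb lay 1450 members (69.7%), against 11.7% of all bins, and in the last 2 Mb 461 (22.2%) against 2.34%. The first 2 Mb held 61 members (2.93%) against 2.33%. The median distance to the distal end was 4.53 Mb, against 42.9 Mb for all bins. Of late-marked bins with an early list 69.0% lay in the last 10 Mb, 29.6% in the last 2 Mb and 8.57% in the first 2 Mb. Their share of the last 10 Mb was thus close to that of members, while both end windows of 2 Mb held more of them. Of 9107 bins marked in all early and no late lists, 33.0% lay in the last 10 Mb.

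**Figure D4:**
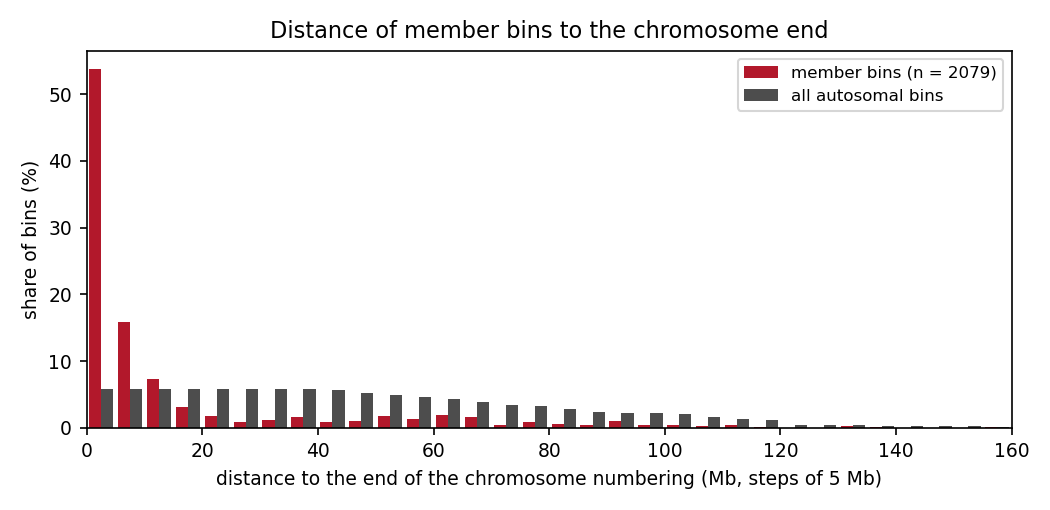
The horizontal axis is the distance to the end of the chromosome numbering in steps of 5 Mb and the vertical axis the share of bins, for members and for all autosomal bins. The first step, nearest the end, holds 53.8% of members and 5.83% of all bins.

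Every autosome held members. Chromosome 23 had the highest share, with 91 of 10500 bins (0.867%), followed by chromosome 18 with 96 (0.729%) and chromosome 15 with 111 (0.653%). The lowest shares were those of chromosome 14 with 21 members (0.127%), chromosome 28 with 16 (0.174%) and chromosome 11 with 40 (0.187%). In windows of 1 Mb, 2031 of 2502 (81.2%) held no member, and 60 windows held 50% of all members. The densest was chr15:80000001-81000000 with 42 members, followed by chr8:111000001-112000000 with 41 and chr5:118000001-119000000 with 39. All coordinates are those of the deposited lists, with the build named as ARS-UCD1.2.

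Members formed 1329 runs of adjacent bins, of which 898 were single bins and 78 had 4 bins or more. Runs of at least 2 bins held 1181 members (56.8%), against 82.4% for late-marked bins with an early list, whose longest run was 130 kb. The longest run of members was 50 kb. The H3K9me3 peaks that held members were long among their lists. Their median length was 7.4 kb in MO replicate 1, against 5.6 kb for all peaks that marked a bin, and 14.8 kb against 8.2 kb in TE replicate 1. A bin must be covered over 50% of its length to be a member, so peak length is not independent of the choice.

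Members were nearer to early H3K9me3 than other bins but mostly not next to it. Since the choice used the early lists, these distances are a description. The other bins were not matched for position. Of other bins in the last 10 Mb, where most members lie, both 8C lists marked 19.0%, against 5.64% of all bins. Of members, 434 (20.9%) bordered a bin marked in at least 1 early list, against 7.26% of the other bins in no early list. The median distance was 25 kb against 100 kb, and 72.4% lay within 50 kb against 35.6%. For bins marked in both 8C lists, 164 members (7.89%) bordered one, against 3.27% of the other bins not so marked, and the median distance was 50 kb against 480 kb. Within 50 kb lay 51.3% of members and 16.5% of the others.

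Of the 10 longest runs, 8 were of 35 kb or more, and the other 2 were the first by chromosome number of 6 runs tied at 30 kb. All 14 runs of 30 kb or more lay on 10 chromosomes, 12 of them within 10 Mb of the distal end and the farthest at 61.6 Mb. The 50 kb run at chr15:80800001-80850000 had no H3K9me3 base in GV, 2C, 4C, 8C or 8A. H3K9me3 covered 92.0% and 93.2% of it in MO, 91.2% and 94.8% in BL, 95.6% and 94.4% in ICM, and 96.4% and 95.2% in TE. H3K27me3 covered 56.8% and 62.4% in GV, none in 2C to 8C, and 96.0% and 96.8% in MO. H3K4me3 covered 49.3% and 57.1% in GV and 40.2% and 56.9% in 8C, and 1.6% and 3.4% in MO. H3K27ac covered 31.4% and 33.9% in 2C, 7.2% and 6.7% in 8C and 43.8% and 45.7% in 8A, and none from MO on. The marks of this run thus followed the course of the separate shares over all members. H3K4me3 was not wholly absent late, covering 1.5% to 5.4% in the MO, ICM and TE lists.

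The 50 kb run at chr24:60725001-60775000 differed in the oocyte, where H3K27me3 covered 24.0% in each library, and had 99.2% and 98.4% in MO. The 45 kb run at chr8:111935001-111980000 had H3K9me3 in both 8A lists, over 20.9% and 17.8%, and none in 8C. In the 45 kb run at chr12:85730001-85775000, H3K4me3 covered 58.6% and 67.8% in GV and 59.2% and 80.1% in 8C, the highest values among these runs in each library of both groups, and 0% and 1.7% in MO. The 35 kb run at chr17:66825001-66860000 had the most uneven blastocyst coverage, with H3K9me3 over 62.3% and 88.0%. The 35 kb run at chr10:101415001-101450000 was the exception for late H3K27me3, with 95.4% and 96.0% in MO and 41.7% and 51.4% in TE.

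The other 4 of the 10 longest runs were chr15:80375001-80420000, chr2:121705001-121740000, chr4:117615001-117645000 and chr5:118000001-118030000. In each, H3K27me3 covered at least 78.7% in both GV lists and at least 80.7% in every late list. Of the 10 named runs, the chromosome 2 run was the one more than 10 Mb from the distal end, at 14.5 Mb. The chromosome 5 run kept some H3K27me3 in cleavage, with 37.3% and 18.0% in 4C.

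**Figure D5:**
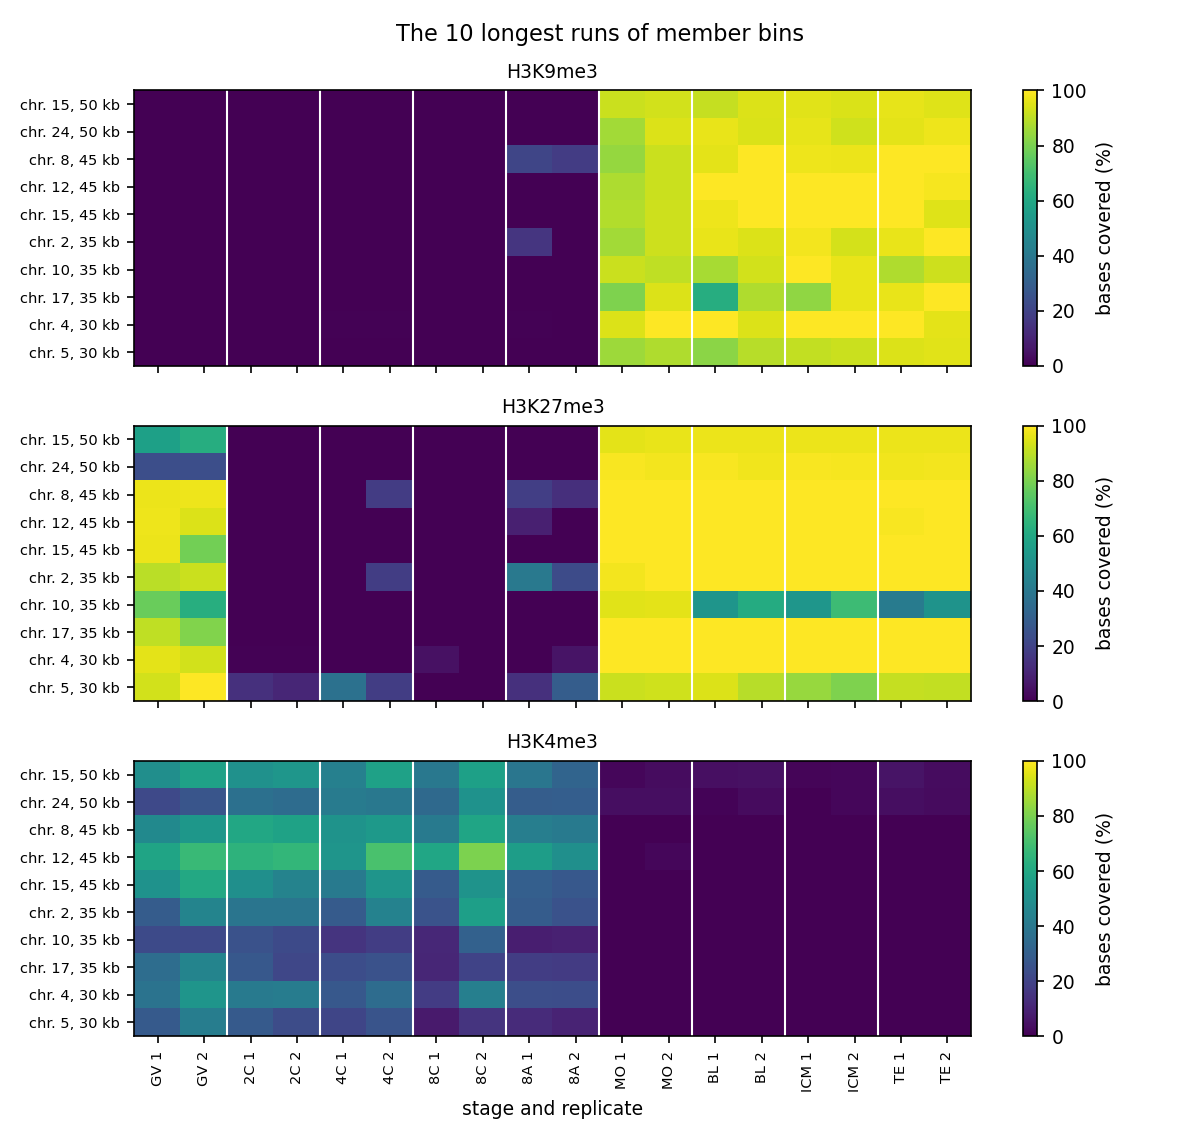
Each row is 1 of the 10 longest runs (2 of 6 tied at 30 kb included) and each column 1 library in stage order, and colour gives the percent of bases covered by H3K9me3, H3K27me3 and H3K4me3 peaks on a scale from 0 to 100. H3K9me3 is at most 0.667% in GV to 8C, up to 20.9% in 8A, and above 80% in the MO, ICM and TE lists, as the choice requires at 50%, and H3K4me3 is confined in these runs to the oocyte, cleavage and 8A lists apart from values under 6%.

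Many members departed from this course in part, as the full sequence given above was found in 581 members (27.9%). The following runs were picked as the longest with H3K27ac or ATAC marked in every list of a group. The 25 kb run at chr10:26325001-26350000 carried H3K27ac and H3K9me3 together in morulae. H3K27ac covered 63.8% and 62.2% of it in MO and H3K9me3 92.8% and 91.2%, with no late H3K27me3. The 10 kb run at chr1:120910001-120920000 was open in blastocysts, with ATAC peaks over 58.0%, 66.5% and 55.5%, while H3K9me3 and H3K27me3 covered all of it in every late list. H3K27me3 also covered all of it in GV and none in 2C to 8C. Whether both states occur in the same cells cannot be told apart from a mixture of cells.

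Genes and sequences in these regions are not analysed here, as no genome of the build was used.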

How the data were processed

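The deposited files are peak lists, 1 for each of 81 libraries, with a peak's position and a whole-number score. No source used here defines the authors' score. Among the results given here, the score entered only the alternative with trimmed lists, where the highest-scoring peaks of each H3K9me3 list were kept. The submitters' processing notes name SICER, the build ARS-UCD1.2, SAMtools 1.9, BWA 0.7.9a, cutadapt 1.8.3, Trim Galore 0.4.0 and Picard 2.26.10, with no role for each. No source used here gives the caller's cutoff, control or read depth, so no precision follows from depth. Bins of 5 kb were scored for the bases covered by the peaks of each library (Python 3.11.15, NumPy 2.4.6, pandas 2.3.3, matplotlib 3.10.9). A chromosome's end is the highest peak end in any list. Scripts were tested on simulated lists. Named runs are the 10 longest, plus the longest of each other mark or ATAC, and the 3 highest and lowest chromosomes. Members, lists and comparisons were chosen with earlier results of these data known. Alternatives tried were the coverage threshold, bin size and offset, trimmed and joined lists, stricter absence, inclusion of X, and each library left out.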

Additional observations from a re-analysis of the deposited data

Results flagged for a closer look

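Outside the autosomes, where the report made no comparison, the same rule was met by 140 of 27802 bins (0.504%) on X and by 204 of 14351 bins (1.42%) on unplaced scaffolds. On the autosomes 0.418% of bins met it. These bins were not otherwise analysed, and the scaffolds have no position on a chromosome.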

How the results depend on the processing

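The number of members stayed within 1.5 times of 2079 in all alternatives but a threshold of 75% (1249), which is stricter by construction, and 10 kb bins (953), whose count is in a longer unit and covers 9.53 Mb against 10.4 Mb. No result reversed. At a threshold of 25%, 83.0% of members were in neither 8A list of H3K9me3, 66.1% had early H3K27me3, 69.5% lay in runs and 67.7% in the last 10 Mb. At 75%, these were 82.9%, 61.6%, 41.8% and 71.9%, and 82.8% were in both BL lists. With 10 kb bins they were 80.7%, 67.8%, 44.2% and 72.6%, with late H3K27me3 on 90.5%. With H3K9me3 lists trimmed to 96.6 Mb they were 88.3%, 74.6%, 76.8% and 76.4%, with late H3K27me3 on 94.5%. Late H3K27me3 was 89.4% with bins shifted by 2.5 kb. Members in neither 8A list were 85.4% when no early base was allowed and 83.2% with X. Joining peaks under 3 kb apart moved none of these. Leaving out 1 library at a time gave 2081 to 2829 members (the highest without MO replicate 1), 88.3% to 97.5% in the BL lists, 79.4% to 87.9% in no 8A list, 61.2% to 65.5% with early H3K27me3, 83.7% to 89.2% with late H3K27me3, 54.9% to 65.4% in runs and 66.2% to 70.4% in the last 10 Mb. The 97.5% and 87.9% are shares for the 1 list left when a BL or an 8A library is dropped, and with both BL lists kept the highest share was 91.2%.

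The narrow marks depended on the definition. With at least 50% of a bin covered in place of 1 base, the mean over a group's libraries of the share of members marked was, for H3K4me3, 38.3% of members in GV, 32.6% in 2C, 29.4% in 4C, 26.3% in 8C, 15.8% in 8A, 0.697% in MO, 0.168% in BL, 0.168% in ICM and 0.241% in TE. For H3K27ac it was 5.17%, 7.17%, 1.88%, 3.75%, 13.8% and 1.52% in GV, 2C, 4C, 8C, 8A and MO, and 0.216% in each of BL, ICM and TE. For ATAC it was 1.65% in BL, 0.962% in ICM and 0.770% in TE. The order of 8A above 8C for H3K27ac held in both definitions, whereas the 8A and 8C libraries of H3K4me3 overlapped in both. No test was run, so no fit with the replicate number was made either. Depth is unknown, so absence from a list means that no peak was called.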
